A study of Mus musculus with 16 samples.

Results

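The cytosolic ribosomal protein genes were followed in preSC, mouse lung cells that precede small cell carcinoma, with and without an added Wnt5a gene. They were chosen by gene symbol: every listed Rpl or Rps gene with a plain number, an accepted paralog suffix (a, x, l, al or l1), the acidic stalk genes Rplp0, Rplp1 and Rplp2, and Rpsa. This gave 82 of the 17655 genes listed, and 78 of them had a mean value of at least 10 over the 16 deposited samples and are described. Of the 78, 45 encode proteins of the large subunit, 30 encode proteins of the small subunit, and 3 encode the stalk of the large subunit.

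The cells are Chga-positive neuroendocrine cells of the lung, null for Rb1 and for Trp53 and carrying 1 null allele of Rbl2, and these alleles are shared by both groups. The empty group carried a lentiviral control without insert, and the Wnt5a group carried a lentivirus with Wnt5a, a secreted Wnt ligand. Doxycycline (1 µg/mL) was given to both for 48 hours, after which RNA was extracted; each library started from 500 ng of RNA, with mRNA selected by oligo-dT. The labels give no number of infected clones or cultures. The values are read counts per gene divided by 1 factor per sample, called normalised read counts here.

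Each group had 8 deposited samples, but samples 1 to 4 of a group differed from one another by little more than counting noise, as did samples 5 to 8. They were therefore averaged into 2 libraries a group, A (samples 1 to 4) and B (samples 5 to 8), and all tests rest on 2 libraries against 2. Nothing in the labels says that the libraries came from separate cultures, so p-values measure only spread among these libraries, which may be technical. Recovered reads per sample ranged from 7526676 to 8859862. Wnt5a itself averaged 122 ± 31.4 in the empty libraries against 1279 ± 325 with the lentivirus (SD, n = 2 each), in the direction of the labels. The 12 neuroendocrine markers examined, Chga and Calca among them, were all above the minimum value and summed to 65334 in empty A and 62910 in empty B. The same markers summed to 61742 and 57992 in Wnt5a A and B. The summed leukocyte, endothelial and lung epithelial markers stayed between 3.52 and 54.2 in every library, and the fibroblast markers summed to 604 and 353 in empty A and B and to 244 and 248 in Wnt5a A and B. Nearly all of the fibroblast sum was Dcn, while the collagens Col1a2 and Col3a1 were at or near 0. What part these markers have in the differences below was not tested.

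The ribosome is built from ribosomal RNAs and a fixed set of proteins, nearly all present in 1 copy, and cells make these proteins in matched amounts. In mammals the genes lie scattered over the chromosomes, each with its own promoter and with many processed pseudogenes elsewhere in the genome. Their transcripts typically begin with a C inside a short run of pyrimidines, the terminal oligopyrimidine motif, through which translation of the whole set responds to growth signals by way of mTOR and Larp1.

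A promoter entry was available in the RefSeq table (GRCm38.p6, 250 bases before to 50 bases after the annotated start) for 58 of the 78 genes. The windows below run from 20 bases before the start to 14 bases after it, so that the start is base 21, and are shown because this is where the terminal oligopyrimidine motif would stand. They come from 4 genes with the run at the start and from Rpl23 and Rpl37a, the genes with the largest and smallest difference between the groups. Capitals mark the unbroken pyrimidine run that holds the start base, 5′ to 3′ on the gene's strand.
Rpl38, chr11:114668560-114668594, plus strand: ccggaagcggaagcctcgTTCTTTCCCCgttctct
Rps6, chr4:86857353-86857387, minus strand: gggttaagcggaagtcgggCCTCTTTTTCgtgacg
Rplp2, chr7:141447631-141447665, plus strand: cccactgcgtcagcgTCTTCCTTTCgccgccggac
Rpl31, chr1:39367831-39367865, plus strand: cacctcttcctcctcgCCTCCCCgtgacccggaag
Rpl23, chr11:97782425-97782459, minus strand: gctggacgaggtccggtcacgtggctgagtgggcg
Rpl37a, chr1:72711240-72711274, plus strand: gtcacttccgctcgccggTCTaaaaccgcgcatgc
Rpl38, Rps6 and Rplp2 have runs of 10 bases and Rpl31 has 7, whereas the annotated start of Rpl23 is a G with no run and that of Rpl37a lies in a run of 3. An annotated start can differ from the start used in these cells, and the libraries do not mark it.

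A run of at least 5 pyrimidines over the start was found for 19 of the 58 genes with an entry, or 32.8%, against 11.2% of the 9700 genes tested that had an entry and 10.1% of all 32851 promoters in the table. The 7 letters CCGGAAG, a match to the Ets family motif searched on both strands, were present for 39.7% of the 58 genes, 20.7% of the genes tested and 8.86% of all promoters. CTTTCC on either strand was found for 51.7%, 29.9% and 26.6%, AAGATGG for 15.5%, 8.44% and 6.34%, and TATAAA for 12.1%, 7.96% and 13.6%, in the same order. A promoter could count for more than 1 of these motifs. The 58 and the 9700 genes were counted over any of their entries, while the 32851 are single entries. The 19 genes with a run had a median difference between the groups of 0.23 on the log2 scale, and the 39 genes with an entry and no run had a median of 0.25, and the values of the 2 sets overlapped.

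The 82 genes together took a larger part of the reads in the Wnt5a cells. Their share of all recovered reads was 1.76% in empty A, 1.97% in empty B, 2.09% in Wnt5a A and 2.37% in Wnt5a B. Among single samples it was lowest at 1.76%, with a median of 1.87% and a highest value of 1.97%, in the 8 empty samples, and 2.09%, 2.23% and 2.38% in the 8 Wnt5a samples, and the groups did not overlap. The mean share was 1.87 ± 0.146% for the empty group and 2.23 ± 0.193% for the Wnt5a group (SD, n = 2 libraries each), a difference of 0.363 percentage points and a ratio of 1.20. Within pair A the ratio was 1.19 and within pair B it was 1.20. B exceeded A by 0.206 points in the empty group and by 0.273 points in the Wnt5a group, so the spread within a group was of the same order as the difference between them. No p is given, since 2 libraries against 2 cannot go below 0.33 in an exact permutation test. The measurement is of RNA from whole cultures, in which a change in the mix of cells and a change in RNA per cell cannot be told apart.

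**Figure D1:**
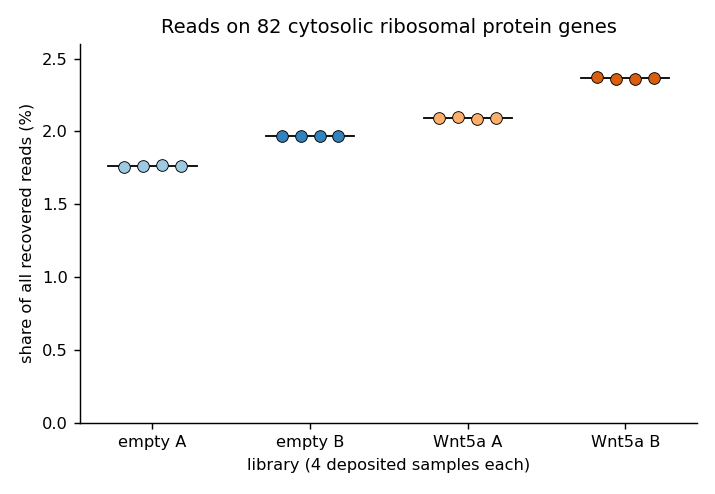
Share of all recovered reads (%) that fell on the 82 cytosolic ribosomal protein genes, by library; points are the 4 deposited samples of each library and lines are their means. The samples of a library lie on top of one another, B lies above A in both groups, and both Wnt5a libraries (2.09% and 2.37%) lie above both empty libraries (1.76% and 1.97%).

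Both subunits and the stalk took part to a like degree. The large subunit genes held 1.05% of the reads in the empty libraries and 1.26% in the Wnt5a libraries, a ratio of 1.20. The small subunit genes held 0.705% and 0.840%, a ratio of 1.19. The 3 stalk genes held 0.110% and 0.131%, also a ratio of 1.19. The reads on the small subunit per read on the large subunit were 0.610 and 0.604 in empty A and B, and 0.603 and 0.606 in Wnt5a A and B, so that the balance between the subunits moved by little in any library.

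Gene by gene, the difference was small and in a single direction. Differences are given as log2(normalised read count + 1), Wnt5a minus empty. All 78 genes had a positive difference, against 50.7% of the 12357 genes tested. The median was 0.25, or 18.8% on the linear scale, against 0.00 over all genes tested, and the values ran from 0.04 (2.56%) for Rpl37a to 0.57 (48.7%) for Rpl23. None reached 2-fold, a size passed by 1.54% of genes tested. The difference was positive in both library pairs for 77 of the 78 genes, against 36.5% of genes tested; the exception was Rpl30, a gene with few reads. Both Wnt5a libraries lay above both empty libraries for 59 genes, against 22.7% of genes tested, and all 8 Wnt5a samples lay above all 8 empty samples for 40 genes, against 6.45%.

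The number that passed a test depended on how the libraries of a group were treated. In limma without a term for library pair (adjusted by Benjamini-Hochberg over the whole table, threshold 0.05), 2 of the 78 genes were higher in the Wnt5a libraries and 0 lower, against 1.38% and 0.672% of genes tested. At an unadjusted limma p under 0.05, 38 were higher, against 8.63% of genes tested. With library pair as a block, 67 were higher and 0 lower, against 8.68% and 8.27% of genes tested: 36 of 45 in the large subunit, 28 of 30 in the small subunit and 3 of 3 in the stalk. The block takes out the gap between B and A. P-values with the block therefore measure only how far pairs A and B differ in Wnt5a minus empty. With so few libraries, limma draws that spread in large part from other genes. DESeq2 on the recovered reads called 7 higher (2.53% of genes tested) and edgeR called 2 (1.33%). Counting the 16 samples separately, which takes the samples of 1 library for replicates, gave 73 higher (17.7% of genes tested), and 76 (24.3%) with the block. The median difference of 0.25 became 0.16 without empty A, 0.33 without empty B, 0.34 without Wnt5a A and 0.15 without Wnt5a B, and the count of genes past the threshold without the block became 2, 19 (4.49% of genes tested), 2 and 0 (9 at an unadjusted limma p under 0.05), in the same order. In these fits 1 group has a single library, which is assumed to vary like the 2 libraries of the other group. For the count of 9, the share of all genes tested is not given here.

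**Figure D2:**
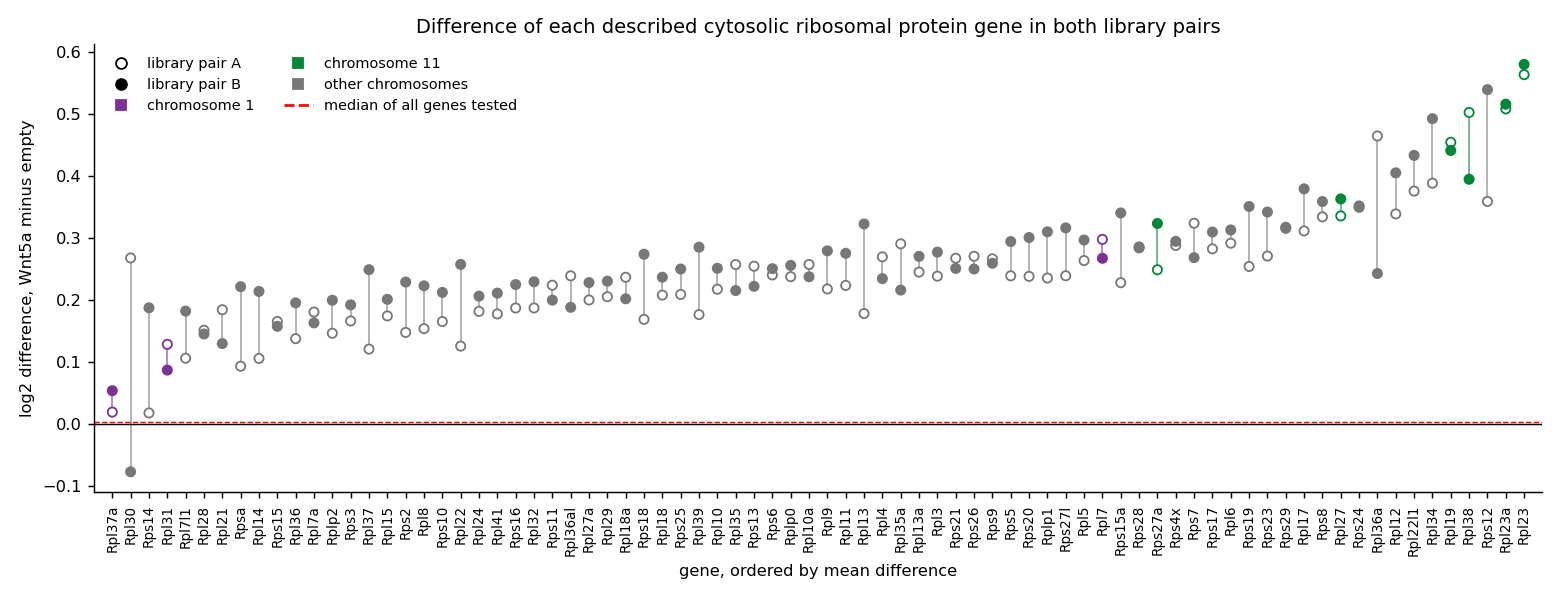
Log2 difference, Wnt5a minus empty, of each of the 78 described genes in library pair A (open circles) and pair B (filled circles), ordered by the mean of both; purple marks chromosome 1, green chromosome 11 and grey all others, and the dashed line is the median of all genes tested. All points lie above 0 except Rpl30 in pair B, the chromosome 11 genes gather on the right, and most genes lie between 0.1 and 0.4.

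Of the large subunit, Rpl23 and Rpl23a were the genes that passed limma without the block. Rpl23 is a protein of the large subunit that can also bind Mdm2. In the 8 empty samples it was lowest at 1491, with a median of 1592 and a highest value of 1665. In the 8 Wnt5a samples these values were 2271, 2344 and 2455. The groups did not overlap. Its mean was 1592 ± 37 against 2367 ± 74.2 (SD, n = 2 each), a difference of 0.57 (SE 0.07, limma adjusted p = 0.0137). Rpl23a, which sits at the mouth of the peptide exit tunnel, had values of 2011, 2142 and 2226 (lowest, median, highest) in the empty samples and 2910, 2981 and 3225 in the Wnt5a samples, again with no overlap. Its difference was 0.51 (SE 0.08, limma adjusted p = 0.0270). Other genes overlap 62.3% of the exon bases of Rpl23a, Tlcd1 among them, and strand use is not given, so some of its reads may belong to them. Rpl23 has no such overlap.

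Both genes lie on chromosome 11. The median shift of each chromosome was then removed from every library, an alternative chosen after the data were seen. Rpl23 was then at 0.40 (limma adjusted p = 0.0597) and Rpl23a at 0.34 (limma adjusted p = 0.132). In this fit 0 of the 78 genes passed limma without the block (0.923% of genes tested). At an unadjusted limma p under 0.05, 39 of the 78 were higher, and the matching share of all genes tested is not given here. With the block and the chromosome medians removed, 64 of the 78 passed and all were higher (3.77% of genes tested).

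Rpl19, Rpl38, Rpl22l1 and Rpl34 followed in size among the large subunit genes. Rpl19, which takes part in a bridge between the subunits, ran from 2801 to 3229 around a median of 2978 in the empty samples and from 3837 to 4362 around 4112 in the Wnt5a samples. Rpl38, a small protein needed in mouse embryos for translation of particular Hox transcripts, ran from 600.4 to 707 around 651 and from 834 to 945 around 883. In neither gene did the groups overlap. Rpl19 differed by 0.45 (SE 0.10, limma adjusted p = 0.0768) and Rpl38 by 0.45 (SE 0.09, limma adjusted p = 0.0598). With the block their limma adjusted p was 0.00135 and 0.00285. Rpl34, at only 14.4 ± 1.63 and 19.9 ± 3.28 (SD, n = 2), differed by 0.44 with an SE of 0.22 and did not pass with or without the block (limma adjusted p = 0.185 and 0.416). Its samples overlapped.

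The smallest differences were also found in large subunit genes, with Rps14 of the small subunit among them. Rpl37a, a zinc-finger protein of the large subunit, ran from 2145 to 2360 around 2284 in the empty samples and from 2201 to 2442 around 2302 in the Wnt5a samples. Rpl31, which lines the end of the exit tunnel, ran from 1685 to 2131 around 1925 and from 1861 to 2256 around 2059. Rps14 ran from 2117 to 2360 around 2262 and from 2161 to 2736 around 2418. The groups overlapped in all 3 genes. Their differences were 0.04 (SE 0.08), 0.11 (SE 0.12) and 0.10 (SE 0.11), none past the threshold in limma with or without the block. Rpl30, at 10.7 ± 0.053 and 11.6 ± 2.18 (SD, n = 2), and Rpl7l1, at 720 ± 16.8 and 796 ± 48.2 (SD, n = 2), completed the lowest 5. With the block 11 genes in all did not pass, the others being Rpl34, Rpl22, Rpl37, Rpl14, Rpl28 and Rpsa.

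Rpl5 and Rpl11, which with Rpl23 are the ribosomal proteins best known for binding Mdm2, were looked up outside the naming rule after their values were seen. Rpl5 differed by 0.28 (limma adjusted p = 0.140, with the block 0.0071) and Rpl11 by 0.25 (limma adjusted p = 0.371, with the block 0.0107). Neither reached the size seen for Rpl23, and the difference between the genes was not tested. Rpl23 lies on chromosome 11, where the other genes had a median difference of 0.17. Rpl5 and Rpl11 lie on chromosomes 5 and 4, where these medians were -0.0018 and -0.00017. Both groups lack Trp53, the usual target of Mdm2.

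The stalk genes encode the proteins that recruit translation factors to the large subunit. Rplp0, their base, ran from 4895 to 5556 around 5225 in the empty samples and from 5721 to 6642 around 6235 in the Wnt5a samples. Rplp1 ran from 2113 to 2441 around 2290 and from 2521 to 3053 around 2713. Rplp2 ran from 1628 to 1725 around 1663 and from 1751 to 1967 around 1903. The samples of the groups did not overlap in any of the 3. Their differences were 0.25 (SE 0.10), 0.27 (SE 0.10) and 0.17 (SE 0.07), with limma adjusted p of 0.277, 0.248 and 0.319 without the block and 0.0108, 0.0088 and 0.0380 with it.

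Among the small subunit genes, Rps12 had the largest difference. None of the 30 passed limma without the block, where 1.38% of genes tested were higher. At an unadjusted limma p under 0.05, 18 were higher (8.63% of genes tested). DESeq2 called 3 of the 30 higher (2.53%) and edgeR 0 (1.33%). Rps12, a protein of the small subunit's beak, ran from 960.2 to 1098 around 1047 in the empty samples and from 1233 to 1603 around 1433 in the Wnt5a samples, with no overlap. Its difference was 0.45 (SE 0.11, limma adjusted p = 0.108, with the block 0.0038), being 0.36 in pair A and 0.54 in pair B. Rps6, the target of the S6 kinases, ran from 2757 to 3068 around 2893 and from 3277 to 3595 around 3416, also without overlap. It differed by 0.25 (SE 0.08, limma adjusted p = 0.195, with the block 0.0102), close to the median of the set. Rpsa, also known as a laminin receptor and the most abundant of the 78 by normalised read count, ran from 5340 to 6073 around 5753 and from 5802 to 7018 around 6416, and the groups overlapped. It differed by 0.16 (SE 0.11), and did not pass with the block (limma adjusted p = 0.0728). Rps27a, made as a fusion with ubiquitin, was at 927 ± 89.6 and 1133 ± 151 (SD, n = 2), and its samples overlapped.

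Many of the genes shared an order of the libraries. The order empty A, empty B, Wnt5a A, Wnt5a B held for 57 of the 78 genes. Empty A was the lowest library for 76 genes and Wnt5a B the highest for 75. The matching counts of order over all genes tested are not given here. Wnt5a A did not lie above empty B for 18 genes, and over all 78 genes the median difference between these 2 libraries was 0.07 on the log2 scale. The gap between B and A was itself common to the set. B minus A, from the limma fit with both terms, had a median of 0.19 over the 78 genes against 0.00 over all genes tested. It was positive for 76 genes against 49.8% of genes tested, and in both groups for 75 genes against 35.3%. In that fit 32 of the 78 were higher in B and 0 lower, against 3.33% and 4.09% of genes tested.

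Rps27l had the largest gap between the libraries of a group. It was at 441 and 573 in empty A and B and at 520 and 714 in Wnt5a A and B, so that Wnt5a A lay below empty B. B minus A was 0.42 (limma adjusted p = 0.0153). Rpl12, Rpl36al, Rpl27 and Rpl41 followed, at 0.34, 0.32, 0.31 and 0.30. Of the 78 genes only Rpl30 and Rpl28 had a negative B minus A, at -0.18 and -0.0043, and neither passed (limma adjusted p = 0.662 and 0.957). Genes with a large difference in pair A tended to have one in pair B (Pearson's r = 0.716 over 78 genes, and 0.539 over the 69 genes off chromosomes 1, 11 and 19). Genes are not independent replicates and the pairs share their cell line, so these values describe the libraries only.

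**Figure D3:**
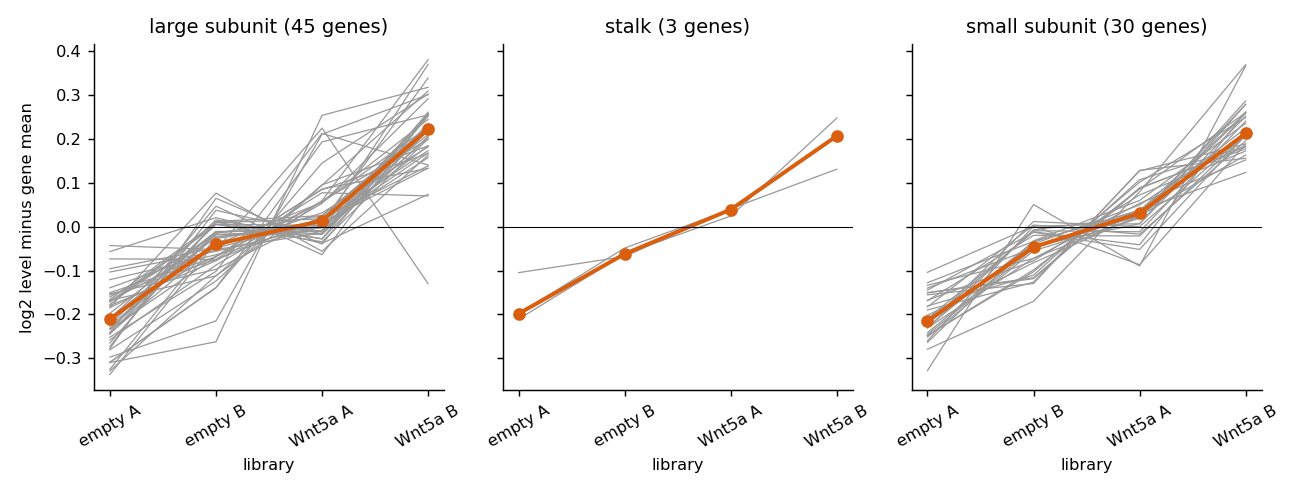
Log2(normalised read count + 1) of each gene minus its own mean over the 4 libraries, for the 45 large subunit, 3 stalk and 30 small subunit genes; grey lines are genes and the orange line is their median. In each panel the medians climb from empty A through empty B and Wnt5a A to Wnt5a B, and the grey line that drops far at Wnt5a B in the large subunit is Rpl30.

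Short transcripts differed between the libraries in the same direction as the ribosomal protein genes. Among genes tested outside the set, the 955 with a transcript under 1000 bases had a median B minus A of 0.11, and the 3601 with at least 4000 bases had a median of -0.07. For Wnt5a minus empty the same groups had medians of 0.05 and -0.03. The 60 ribosomal protein genes under 1000 bases had a median of 0.19 for B minus A and 0.25 for Wnt5a minus empty. The 16 genes of 1000 to under 2000 bases had 0.14 and 0.25. Of the 200 other genes that were both under 1000 bases and at a mean value of at least 500, 127 had a positive Wnt5a minus empty difference, with a median of 0.03. The 200 genes had a median B minus A of 0.13, against 0.19 for the ribosomal protein genes under 1000 bases. Within these data the median Wnt5a minus empty of the ribosomal protein genes was larger than that of the 200 genes. What part length or RNA quality has in either difference was not tested.

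**Figure D4:**
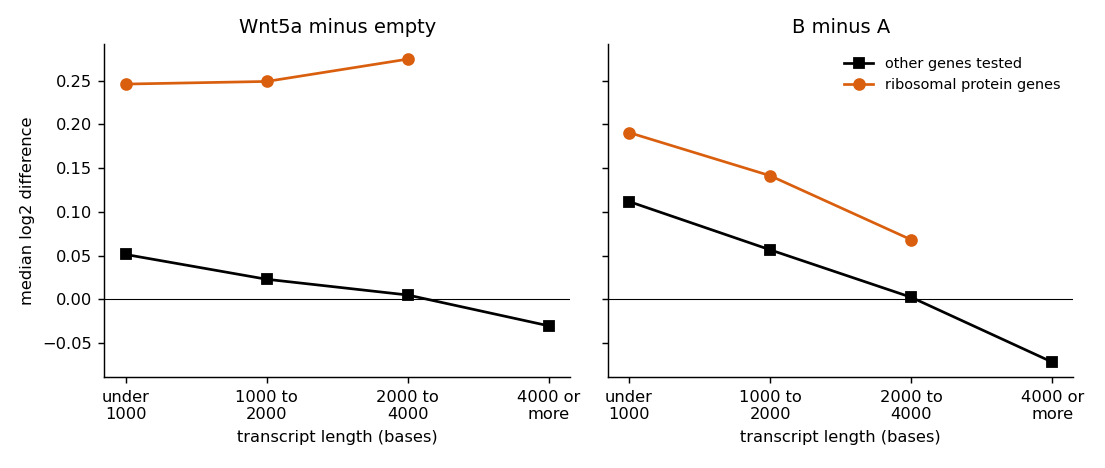
Median log2 difference by transcript length for the ribosomal protein genes (orange circles; 60, 16 and 2 genes, none of 4000 bases or more) and the other genes tested (black squares), for Wnt5a minus empty (left) and B minus A (right). The black line falls with length in both panels, from 0.05 to -0.03 on the left and from 0.11 to -0.07 on the right, and the orange points lie above it.

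Position on the chromosome went with part of the variation among the genes. The other genes of chromosome 11 had a median difference of 0.17, those of chromosome 1 had -0.17, and those of chromosome 19, which carries none of the 78, had 0.36. On each of the remaining 17 chromosomes the median of the other genes lay between -0.02 and 0.02. The 6 ribosomal protein genes of chromosome 11 (Rpl19, Rpl23, Rpl23a, Rpl27, Rpl38 and Rps27a) had a median of 0.45. The 3 of chromosome 1 had a median of 0.11, with Rpl7 at 0.28, Rpl31 at 0.11 and Rpl37a at 0.04. On the 17 remaining chromosomes the medians of the ribosomal protein genes ran from 0.19 to 0.42. With the members on chromosomes 1, 11 and 19 left out, also chosen after the data were seen, the 69 genes had a median of 0.25 and all were positive, 60 passed limma with the block, against 4.43% of the 10235 genes tested off these chromosomes. Without the block 0 passed (0.928% of those genes tested), 31 had an unadjusted limma p under 0.05 with a higher level (4.28%), and DESeq2 called 3 (1.37%) and edgeR 0 (0.918%). With chromosome medians removed, Rpl37a moved to 0.21 and Rpl31 to 0.28. The difference of the set was therefore about as large without these chromosomes, while the largest and smallest single values lay on them. What underlies the shifted medians was not tested.

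**Figure D5:**
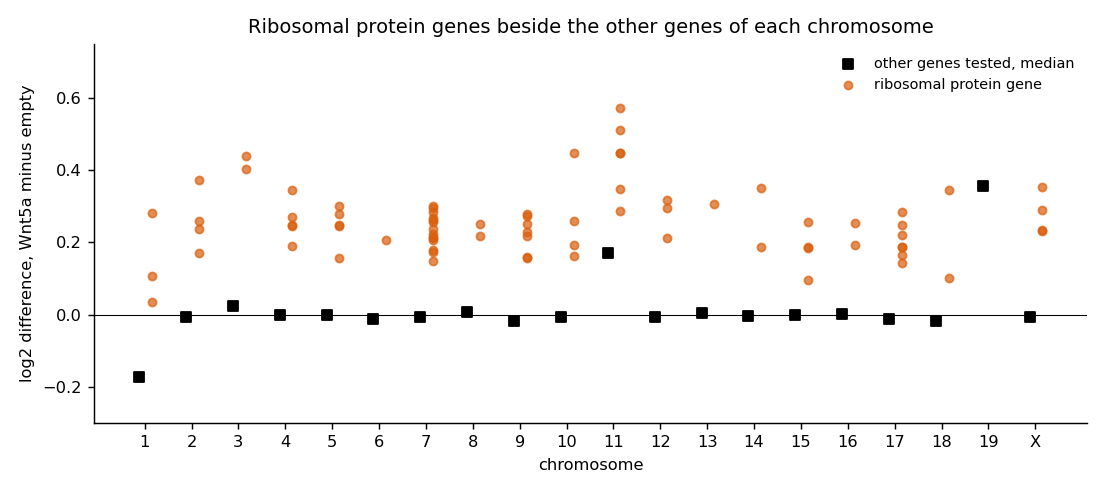
Log2 difference, Wnt5a minus empty, of each described ribosomal protein gene (orange) beside the median of all other genes tested on the same chromosome (black squares). The black squares stand near 0 except on chromosomes 1, 11 and 19, and the orange points lie above the black square on every chromosome that has any.

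The set holds paralogs of core ribosomal proteins, which can be set beside the gene each is named after. Rpl22l1, the paralog of Rpl22, ran from 315 to 400 around 354 in the empty samples and from 408 to 529 around 480 in the Wnt5a samples, with no overlap (limma difference 0.40 with an SE of 0.11; adjusted p 0.128, or 0.0053 with the block). Rpl22 ran from 547 to 651 around 623 and from 635 to 797 around 710, with overlap (limma difference 0.19 with an SE of 0.10; adjusted p 0.411, or 0.0550 with the block). The reads on Rpl22l1 were 56.4% and 59.2% of those on Rpl22 in empty A and B and 67.1% and 66.9% in Wnt5a A and B. Both Wnt5a libraries thus lay above both empty libraries; the difference in this ratio was not tested. Rpl36al had 126% and 144% of the reads of Rpl36a in the empty libraries and 108% and 139% in the Wnt5a libraries, which overlap. Rpl7l1 had 25.5% and 22.9% of the reads of Rpl7, then 22.4% and 21.6%, so that both Wnt5a libraries lay below both empty libraries, and this difference was not tested either.

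Per kilobase of transcript, the 78 genes were far above most others: their median level was 2838 normalised reads per kilobase, against 116 over the 12225 genes tested with a length. Rpl41, which encodes the smallest ribosomal protein, was highest at 7546 per kilobase, followed by Rps15 at 5338, Rplp1 at 5028, Rps21 at 4917 and Rpl19 at 4731. The lowest were Rpl30 at 19.6, Rpl34 at 35.8, Rps20 at 295, Rpl7l1 at 578 and Rpl22l1 at 755. Rps20 was scaled by a transcript entry of 3706 bases, which sets its low rank. By median, the stalk genes were at 4222 per kilobase, the small subunit genes at 2894 and the large subunit genes at 2562.

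Some core proteins had almost no reads. Rpl26 had 1 read in all 16 samples together and Rps27 had 80, split as 13, 25, 20 and 22 over empty A, empty B, Wnt5a A and Wnt5a B. Rpl30 and Rpl34 stood just above the minimum, at mean values of 11.2 and 17.2, and the next gene was Rpl22l1 at 417. All 4 encode proteins of the mature ribosome, and their values stand far from those of their partners. Rps27l, the paralog of Rps27, had 1598, 2251, 2215 and 3046 reads in the same 4 libraries. Each of the 4 shares sequence with other genes: for Rpl26 28.7% of the 50-base windows of its transcript are found in no other GENCODE M21 transcript, for Rps27 1.35%, for Rpl30 23.6% and for Rpl34 49.4%. The median over the 78 genes was 41.3%, and some genes with fewer unique windows, such as Rps12 at 9.89%, were counted in high numbers. How reads that match several places were counted is not given, so levels and differences of all genes with copies are uncertain. Rpl3l, a paralog of Rpl3 typical of muscle, had 4 reads although its transcript is unique, and Rpl32l also had 4. Of the 78 genes, 39 share exon bases with another gene. Among the 28 genes with at least 50% of windows unique, chosen after the data were seen, the median difference was 0.22 and all 28 were positive.

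Genes of the same pathway outside the symbol rule were read from the same fits. Rps3a1, Fau and Rack1 encode further parts of the ribosome, and all 3 had a positive difference. Rps3a1, a small subunit protein, was at 2617 ± 186 and 4089 ± 329 (SD, n = 2), a difference of 0.64 (SE 0.09, limma adjusted p = 0.0238), larger than that of any of the 78. Fau, made as a ubiquitin-like fusion and located on chromosome 19, differed by 0.60 (limma adjusted p = 0.0277). Rack1, a scaffold on the small subunit, lies on chromosome 11 and differed by 0.45 (limma adjusted p = 0.0645).

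The 17 tested translation factors and other transcripts known for the oligopyrimidine start had a median of 0.11, with 16 positive, 1 past the threshold without the block (Eef1g, on chromosome 19) and 4 with it, all higher. Eef1a1, the most abundant of them, was at 29986 ± 1048 and 35535 ± 499 (SD, n = 2), a difference of 0.25 (limma adjusted p = 0.308, with the block 0.0204). The 32 ribosome biogenesis genes had a median of 0.12, with 28 positive and 2 past the threshold, Rrp12 at 0.80 and Nolc1 at 0.51, both on chromosome 19. With the block 6 were higher, 5 of them on chromosome 11 or 19, and 1 lower. The 12 regulators had a median of 0.10 with 0 past the threshold. The unadjusted limma p was under 0.05 for 5 of them, both directions counted, and the matching share of all genes tested is not given here. With the block 3 were higher and 2 lower. In that fit Eif4ebp1 (0.39, limma adjusted p = 0.0247), Rps6kb1 (0.34, 0.0055) and Larp1 (0.20, 0.0238) were higher, the last 2 of them on chromosome 11. Mtor, on chromosome 4 (-0.36, limma adjusted p = 0.0049), and Rps6kb2, on chromosome 19 (-0.26, 0.0368), were lower. With the block, 23.5% of the translation factor list, 18.8% of the biogenesis genes and 25% of the regulators were higher. Of the 4 higher translation factor genes, 2 were on chromosome 11 or 19. In the same fit 1 of the 32 biogenesis genes and 2 of the 12 regulators were lower. Over all genes tested, 8.68% were higher and 8.27% lower with the block, and 1.38% and 0.672% without it.

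The 78 mitochondrial ribosomal protein genes, which serve a separate ribosome, were read in the same way. Their median B minus A was 0.15, against 0.19 for the cytosolic genes. Their median Wnt5a minus empty was 0.09, against 0.25, with 67 positive and 0 past the limma threshold without the block. The unadjusted limma p was under 0.05 for 10 genes, both directions counted. The matching share of all genes tested is not given here. With the block 10 (12.8%) were higher, against 8.68% of genes tested, and 1 lower. Of the 10, 9 were on chromosome 11 or 19, as were 609 of the 1073 such calls among all genes tested and 6 of the 67 among the cytosolic genes. The difference between the lists was not tested. The neuroendocrine markers had a median of -0.12, with 2 of 12 positive, and Scg2, a secretogranin, lower by both fits (difference -0.73, limma adjusted p = 0.0121). With the block 4 of the 12 were lower and 0 higher: Scg2, Calca (-0.31, limma adjusted p = 0.0060), Chga (-0.25, 0.0126) and Uchl1 (-0.20, 0.0206). Over all genes tested, 8.27% were lower and 8.68% higher in the fit with the block. The sum of the 12 was lower in B than in A within each group, the reverse of the ribosomal protein genes, and the part of this in the result was not tested.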

How the data were processed

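RNA-seq of 16 samples in 2 groups was used. Per the submitters' processing notes, TopHat, Bowtie, HTSeq and DESeq2 were used; their versions and roles, the genome build and the strand setting are not given in the sources used here. The deposited signal values are normalised per sample by the authors. In every file 100% of values were whole multiples of 1 step (tolerance 0.01), so whole reads were recovered. Library totals were 30220749 and 32592342 reads (empty A, B) and 35102931 and 35315408 (Wnt5a A, B). These depths limit counting error only.

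Genes with a mean value of at least 10 (12357) were compared with limma 3.58.1 (R 4.3.3, eBayes with trend) on log2(value + 1) of the library means, with Benjamini-Hochberg adjustment. This scale understates the change of low genes. The labels number the samples alike in both groups. Same-numbered samples deviated together (r 0.175 to 0.220 for all 8 numbers). Only 1 empty sample had its highest r with its own number, so matching by single number was not seen. Library A of the 2 groups deviated together (r = 0.44), so library pair was also fitted as a block. On recovered reads summed per library, edgeR 4.0.16 called 246 genes and DESeq2 1.42.0 called 538. Scripts were tested on simulated data.

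Members and lists were chosen with earlier results of these data known. The genes named were the 5 highest and 5 lowest per kilobase, those past the threshold, the 5 largest rises and falls (as no gene fell, the 5 smallest differences), paralogs with namesakes, stalk genes, Rpsa, Rps27a and Rps6, up to 4 genes on chromosomes 1, 11 and 19, the 5 largest B minus A differences each way, and, of other lists, those past the threshold or else up to 3 of the most abundant. Other genes named were chosen after their values were seen, and 2 genes of the other lists are not reported here. Chromosomes came from the RefSeq GRCm38.p6 table, and transcript length and uniqueness from GENCODE M21. Alternatives were the pseudocount, the filter, quantile normalization, centring, no eBayes trend, each of the 16 samples as a replicate, the block, each library left out, edgeR and DESeq2.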

Additional observations from a re-analysis of the deposited data

Results flagged for a closer look

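In 2 of 58 checks for a sample standing apart from the other 7 of its group, over the 28 named genes and the share of reads, the limit was passed; chance passes it in about 1 group in 20. The lowest empty sample for Rpl22 was at 546.7, and the highest Wnt5a sample for Rpl34, a gene with few reads, was at 31.75.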

How the results depend on the processing

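The median difference of the 78 genes lay between 0.22 and 0.27 under other pseudocounts, filters, centring, quantile normalization, edgeR, DESeq2 and the alternatives chosen after the data were seen, and from 0.15 to 0.34 when 1 library was left out. The count past the threshold without a block was 2. It was 1 without a filter on low values, 0 without the eBayes trend in limma (22 at an unadjusted p under 0.05), 7 with DESeq2, 73 with all 16 samples counted separately (17.7% of genes tested), 76 with all 16 samples and the replicate block (24.3%), and 0 to 19 when 1 library was left out. Of the alternatives chosen after the data were seen, it was 0 with chromosome medians removed, 0 without the members on chromosomes 1, 11 and 19, and 1 among genes with at least 50% unique windows; the latter 2 consider fewer genes. With the replicate block it was 67. For the count of 22, the share of all genes tested is not given here. The causes of the other changes were not tested. Rpl30 turned to -0.0764 under quantile normalization, and ranged from -0.0824 (without Wnt5a A) to 0.272 when 1 library was left out. Rpl31 ranged from -0.0231 (without empty A; -0.0023 without Wnt5a B) to 0.238, Rpl37a from -0.0199 (without Wnt5a B; -0.0027 without empty A) to 0.0918, and Rps14 from -0.0355 (without Wnt5a B) to 0.240. Among the named genes 75 values gained and 8 lost the threshold, the latter all for Rpl23 or Rpl23a. The share of reads differed by 0.227 to 0.4996 percentage points when 1 library was left out. With 2 libraries a group, precision is limited by the libraries, and for Rpl30 and Rpl34 also by their few reads.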
